A study of Mus musculus with 12 samples.

Results

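The 10 brown fat thermogenic genes Ucp1, Cidea, Elovl3, Dio2, Ppargc1a, Ppargc1b, Prdm16, Ebf2, Zic1 and Lhx8 were followed across 4 metabolic organs of the mouse. They were chosen by gene symbol, and all 10 were found, once each, among the 22276 symbols of the expression table. RNA-seq was done on white fat (WAT), brown fat (BAT), liver and quadriceps muscle of male C57BL/6J mice aged 17 wk. In each organ there were 3 groups with 1 library each, 12 libraries in all. NCD-veh mice ate a normal chow diet and HFD-veh mice a high-fat diet, which began at 8 wk of age, and both received vehicle (veh). HFD-ncls mice ate the same high-fat diet and were given narciclasine (ncls), a plant alkaloid, by weekly gavage from 10 wk of age. No mutation or transgene is named for any group, and neither the labels nor the methods say how many mice were pooled into a library. Values are FPKM, the number of fragments scaled to transcript length and to the mapped fragments of the library, so levels can be compared between genes per unit of transcript length.

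Brown adipocytes burn fuel to make heat. UCP1 lets protons leak back across the inner mitochondrial membrane, so that respiration runs without making ATP. Cold releases noradrenaline onto β-adrenergic receptors, cAMP rises, and the genes for UCP1, the deiodinase DIO2 and the coactivator PGC-1α (encoded by Ppargc1a) are among those it is known to induce, while PRDM16 and EBF2 are known for setting brown adipocyte identity.

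Promoters of Ucp1, Dio2 and Ppargc1a are shown because these are the textbook cAMP-induced members, and each holds the letters TGACG, the first part of the cAMP response element TGACGTCA. The RefSeq promoter table (GRCm38.p6) matched 6 of the 10 members and not Cidea, Elovl3, Ebf2 or Ppargc1b. The 250 bases before the start are written 5′ to 3′ on the strand of the gene, with TGACG or its reverse complement CGTCA in capitals. They lie at chr8:83290098-83290347 (plus strand) for Ucp1, chr12:90739039-90739288 (minus strand) for Dio2 and chr5:51567726-51567975 (minus strand) for Ppargc1a.
Ucp1: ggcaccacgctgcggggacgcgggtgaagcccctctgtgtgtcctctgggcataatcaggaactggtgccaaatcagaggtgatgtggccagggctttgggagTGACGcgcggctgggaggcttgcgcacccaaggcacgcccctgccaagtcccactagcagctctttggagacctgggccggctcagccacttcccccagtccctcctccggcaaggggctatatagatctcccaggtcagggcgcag
Dio2: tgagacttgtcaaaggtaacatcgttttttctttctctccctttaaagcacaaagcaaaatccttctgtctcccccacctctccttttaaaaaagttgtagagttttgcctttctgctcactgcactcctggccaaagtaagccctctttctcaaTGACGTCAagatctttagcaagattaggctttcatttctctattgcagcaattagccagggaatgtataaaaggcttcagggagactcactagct
Ppargc1a: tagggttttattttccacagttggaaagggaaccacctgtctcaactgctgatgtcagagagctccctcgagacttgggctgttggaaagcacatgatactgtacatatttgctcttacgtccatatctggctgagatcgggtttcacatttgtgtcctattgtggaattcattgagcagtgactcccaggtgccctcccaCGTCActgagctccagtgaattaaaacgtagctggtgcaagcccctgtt
The whole element TGACGTCA stood in the Dio2 window, from base -95 to base -88 before the start, and in 1.55% of the 32851 promoters of the table. TGACG on either strand was in 3 of the 6 matched members and in 17.8% of all promoters. In Ucp1 it lay from base -147 to base -143, and in Ppargc1a from base -49 to base -45 on the opposite strand. The nuclear receptor hexamer AGGTCA was in the Ucp1 window, from base -14 to base -9, and in 14.0% of promoters. TCAAGGTCA, the element of the estrogen-related receptors, which contains AGGTCA, was in none of the 6 windows and in 0.387% of promoters, and the EBF core CCCNNGGG was in none of the 6 and in 11.8%. All motifs were searched on both strands. A match is only a match of letters.

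The libraries held about 18200000 to 25700000 fragments, estimated from the steps that whole fragments leave in low FPKM values, and between 9130 and 12052 genes had at least 1 FPKM. The labelled tissues showed their markers. Summed over the 8 general adipocyte markers, levels were 17109 to 27485 FPKM in WAT, 10335 to 11295 FPKM in BAT and at most 430 FPKM elsewhere. Other tissues were traceable as well. Fast-twitch muscle markers in BAT, as a median percentage of their level in quadriceps of the same group, came over 11 genes to 1.96% for NCD-veh, 0.779% for HFD-veh and 0.116% for HFD-ncls. Liver markers in WAT came to 0.00107%, 0.0672% and 0.232% of their liver level over 20 genes, and in the HFD-veh muscle library to 0.592%. Mesothelial markers summed to 81.4 to 205 FPKM in WAT and to at most 0.108 FPKM in BAT.

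**Figure D1:**
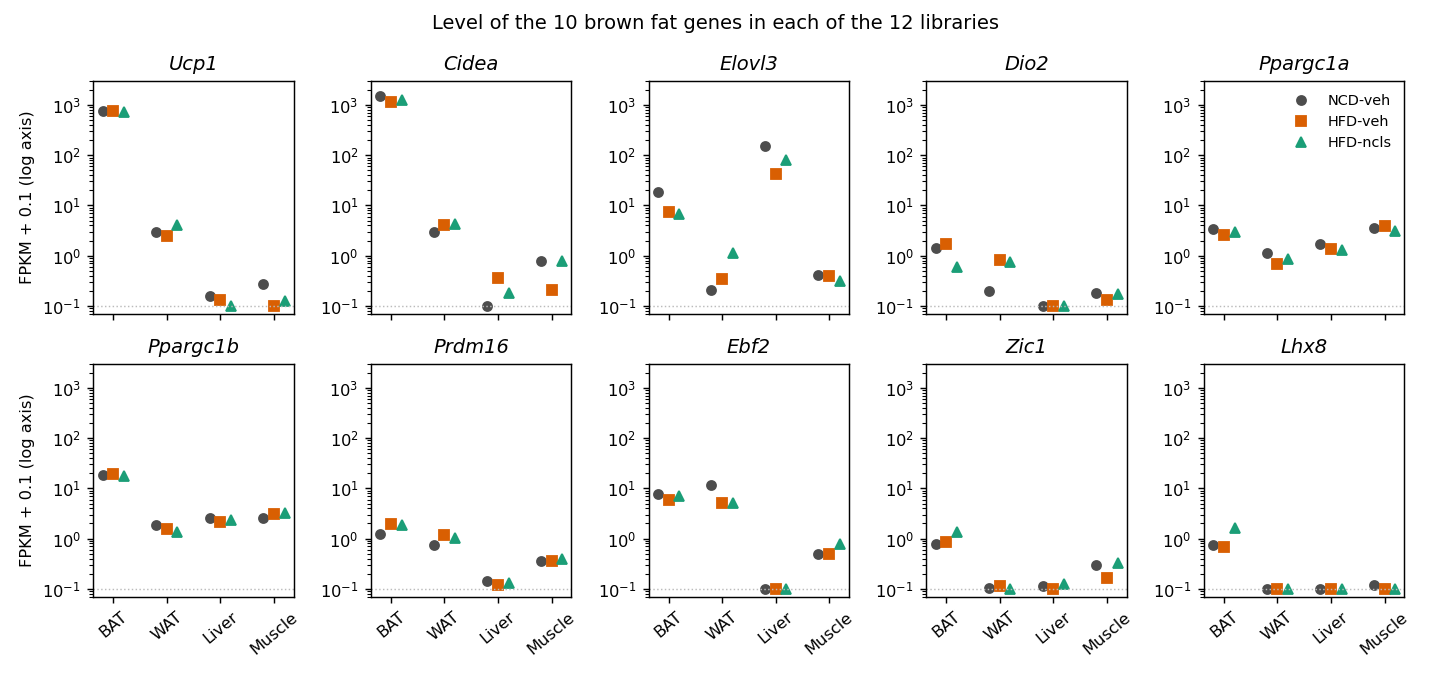
FPKM + 0.1 (log axis) of each of the 10 genes in the 12 libraries, by organ, with circles for NCD-veh, squares for HFD-veh and triangles for HFD-ncls; the dotted line marks a listed value of 0. Ucp1 and Cidea stand at 740 FPKM or above in the 3 BAT libraries and under 5 FPKM elsewhere, Elovl3 is highest in liver, Ppargc1a is of similar level in BAT and muscle, and Ebf2 overlaps between BAT and WAT.

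Ucp1, the uncoupling protein itself (mm9 chromosome 8, 85814247 to 85822355, plus strand), was almost the same in the 3 BAT libraries. The NCD-veh library held 770 FPKM, the HFD-veh library 768 FPKM and the HFD-ncls library 740 FPKM, or 759 ± 17.0 FPKM (SD, n = 3 libraries). Among all genes of those libraries it ranked 45, 40 and 48 by FPKM. In WAT it was 2.86, 2.38 and 3.92 FPKM in the same order of groups, 0.402% of the BAT mean. Liver held 0.0542, 0.0283 and 0 FPKM and muscle 0.179, 0 and 0.0247 FPKM, which is between 0 and about 7.2 fragments a library. The lowest BAT library thus lay far above the highest library of any other organ, and WAT lay above liver and muscle without overlap.

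Cidea, which encodes a lipid droplet protein (chromosome 18), was the only member above Ucp1 in BAT. BAT levels, again from NCD-veh through HFD-veh to HFD-ncls, were 1509, 1121 and 1269 FPKM, and the gene ranked 17, 19 and 17. WAT levels were 2.92, 3.99 and 4.18 FPKM. In liver it was 0, 0.255 and 0.0815 FPKM and in muscle 0.690, 0.109 and 0.667 FPKM. As for Ucp1, BAT and the other organs did not overlap.

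Elovl3, a fatty acid elongase (mm9 chromosome 19, 46206387 to 46210184, plus strand), was not a gene of BAT alone in these data. Liver held the most, with 154, 41.3 and 80.1 FPKM. BAT held 18.6, 7.39 and 6.52 FPKM. WAT held 0.105 and 0.242 FPKM in the veh libraries and 1.03 FPKM in HFD-ncls, and muscle was between 0.212 and 0.307 FPKM. In both BAT and liver the NCD-veh library was the highest of the 3.

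Dio2, the deiodinase that makes active thyroid hormone inside the cell (mm9 chromosome 12, 91962994 to 91976878, minus strand), was low in every organ. BAT levels were 1.32, 1.62 and 0.484 FPKM. WAT levels were 0.0936, 0.731 and 0.662 FPKM, so the HFD-ncls library of BAT lay below both HFD libraries of WAT. It was listed at 0 in all 3 liver libraries and at most 0.0787 FPKM in muscle.

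Ppargc1a (mm9 chromosome 5, 51845488 to 51958964, minus strand) and Ppargc1b (chromosome 18) encode the coactivators PGC-1α and PGC-1β, which drive mitochondrial genes. Ppargc1a was 3.23, 2.42 and 2.83 FPKM in BAT and 3.51, 3.80 and 2.98 FPKM in muscle, and these overlapped. It was 1.60, 1.27 and 1.19 FPKM in liver and 1.03, 0.583 and 0.751 FPKM in WAT. Ppargc1b set BAT apart from the other organs more clearly than its relative. Its level was 18.8, 18.9 and 17.6 FPKM in BAT, against 1.26 to 1.73 FPKM in WAT, 2.08 to 2.50 FPKM in liver and 2.45 to 3.07 FPKM in muscle.

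Prdm16, a coregulator of brown identity (mm9 chromosome 4, 153690234 to 154010982, minus strand), was 1.16, 1.88 and 1.78 FPKM in BAT and 0.634, 1.09 and 0.926 FPKM in WAT. The lowest BAT library and the highest WAT library were thus close. Liver held at most 0.0427 FPKM and muscle 0.259 to 0.294 FPKM. Ebf2, a transcription factor of the adipocyte lineage known for its role in brown precursors (mm9 chromosome 14, 67852129 to 68048604, plus strand), overlapped between WAT and BAT. WAT held 11.5, 5.05 and 5.04 FPKM and BAT 7.78, 5.74 and 7.05 FPKM. Muscle held 0.387 to 0.682 FPKM, and in liver it was listed at 0 in all 3 libraries.

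Zic1 and Lhx8, transcription factors used as markers of classical brown fat (mm9 chromosome 9, 91252896 to 91260648, and chromosome 3, 153969260 to 153993615, both minus strand), were low and highest in BAT. Zic1 was 0.691, 0.737 and 1.24 FPKM in BAT, at most 0.0143 FPKM in WAT, at most 0.0249 FPKM in liver and 0.0668 to 0.226 FPKM in muscle. Lhx8 was 0.633, 0.578 and 1.53 FPKM in BAT, from about 33.3, 29.4 and 77.1 fragments. It was listed at 0 in every WAT and liver library and in 2 of the 3 muscle libraries. Over the 3 BAT libraries (SD, n = 3) levels were 18.5 ± 0.705 FPKM for Ppargc1b, 10.8 ± 6.75 FPKM for Elovl3, 1.14 ± 0.591 FPKM for Dio2 and 0.914 ± 0.535 FPKM for Lhx8. Relative to their means, Elovl3, Lhx8 and Dio2 thus varied most within BAT, and Ucp1 and Ppargc1b least.

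To ask which members set BAT apart, the organs were compared with limma on log2(FPKM + 0.1), with the 3 libraries of an organ as its samples. Because these libraries differ in diet and treatment, the spread holds those effects too, and nothing in the labels says how many animals it covers. In bulk tissue, fewer cells of a type and less RNA per cell cannot be told apart. A member was called when its adjusted p was below 0.05 and its difference over 2-fold.

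Compared with WAT, 7 of the 10 members were higher in BAT and none was lower, whereas 6.91% of the 13648 genes tested were higher. Ucp1 differed by 7.94 on the log2 scale (SE 0.33, adjusted p = 1.08e-08) and Cidea by 8.43 (SE 0.51, adjusted p = 8.65e-08), which are ratios of mean FPKM of 249 and 352. Elovl3 differed by 4.50, Ppargc1b by 3.56, Lhx8 by 3.22, Zic1 by 3.19 and Ppargc1a by 1.74, with adjusted p from 9.56e-09 for Ppargc1b to 4.26e-05 for Elovl3. For Lhx8, with WAT listed at 0, the fitted difference depends on the added 0.1. Zic1, Lhx8 and Dio2 reached 1 FPKM, the level needed to enter the fit, in BAT alone, so they entered through the organ where they are high. Of the other 7 members, 5 were higher in BAT than in WAT. The remaining 3 were not called. Prdm16 differed by 0.80 (adjusted p = 0.00848), under 2-fold, Dio2 by 1.18 (SE 0.53, adjusted p = 0.0603) and Ebf2 by 0.03 (SE 0.31, adjusted p = 0.929).

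The scale between these 2 organs was not settled by FPKM. The median of all genes was 0.97 lower in BAT than in WAT, and rescaling the libraries to their median ratio moved the median by 0.74 toward BAT. Of all calls, 12.6% were higher in BAT before and 35.4% after the rescaling. The order of members held, with 9 called higher in BAT, Prdm16 at 1.48 and Dio2 at 1.76 now among them, beside 14.1% of all genes. The 9 include Zic1, Lhx8 and Dio2, which reached 1 FPKM in BAT alone. Ebf2 came to 0.78 (adjusted p = 0.0409) and was still under 2-fold. Dio2 was also called when the HFD-veh or the HFD-ncls library of WAT, or the HFD-ncls library of BAT, was left out, with differences of 1.55, 1.49 and 1.66.

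Compared with liver, 9 members were higher in BAT, against 24.3% of all genes, or 6 of the 7 that reached 1 FPKM outside BAT as well. Dio2, Ebf2 and Lhx8 were among them, and since liver was listed at 0 their fitted differences depend on the added 0.1. Elovl3 was the exception. It was lower in BAT (log2 difference -3.04, SE 0.63, adjusted p = 0.00113), 8.47-fold by mean FPKM, where 18.2% of all genes were lower. Ppargc1a passed narrowly with 1.01 (SE 0.21) and was no longer over 2-fold after rescaling, where it was 0.99, or without the NCD-veh library of BAT or either HFD library of liver. Compared with muscle, 9 members were again higher, against 28.6% of all genes, or 6 of those 7. Ppargc1a was the member not called, with a difference of -0.27 (SE 0.21, adjusted p = 0.259). Ucp1 and Cidea differed from muscle by 12.29 and 11.33 and from liver by 12.56 and 12.76, values that rest on a few fragments outside fat.

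**Figure D2:**
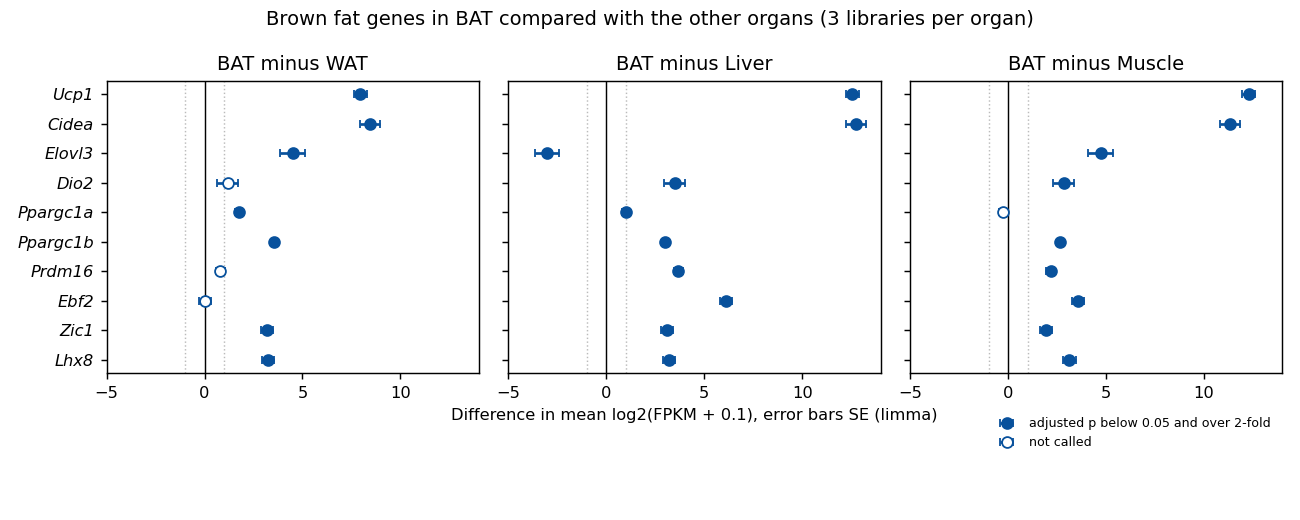
Difference in mean log2(FPKM + 0.1) between BAT and WAT, liver or muscle for each gene, with SE from limma (3 libraries per organ); filled points have an adjusted p below 0.05 and exceed 2-fold, and dotted lines mark 2-fold. Ucp1 and Cidea lie near 8 in the WAT panel, Ebf2 lies at 0.03 there, Elovl3 lies at -3.04 in the liver panel and Ppargc1a at -0.27 in the muscle panel.

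All 3 BAT libraries lay above all 9 others for 6 of the 10 members, Ucp1, Cidea, Ppargc1b, Prdm16, Zic1 and Lhx8. That was so for 6.16% of all genes tested. The other 4 overlapped with liver (Elovl3), muscle (Ppargc1a) or WAT (Dio2 and Ebf2). Of the 6 above, Zic1 and Lhx8 reached 1 FPKM in BAT alone, so they were among the genes tested through the organ where they are high.

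For the other organ pairs, fat was not always above liver and muscle. Between WAT and liver 6 members differed, against 61.3% of all genes in either direction, and Elovl3 was the member lower in WAT (-7.54). Ucp1 was 4.62 higher in WAT than in liver and Ebf2 6.08 higher. Between WAT and muscle 7 members differed, against 63.5% of all genes. Ppargc1a and Zic1 were lower in WAT (-2.02 and -1.27), and Elovl3 did not differ beyond the spread (0.22, SE 0.63, adjusted p = 0.759). Between liver and muscle 6 members differed, against 51.4% of all genes, and Elovl3 was the member higher in liver (7.76). These shares are near those of genes at large. For Ucp1 the order of organs was BAT, WAT, then muscle and liver, which did not differ beyond their spread (-0.27, SE 0.33, adjusted p = 0.475). Comparisons with WAT depend on the scale described above. Of all calls, 81.1% were higher in WAT than in liver before the rescaling and 63.3% after it, and 85.7% and 67.8% were higher in WAT than in muscle. After it Ppargc1a and Ppargc1b were also called lower in WAT than in liver (-1.43 and -1.31), Ppargc1b was called lower than in muscle (-1.72), and Dio2 and Prdm16 were no longer called against muscle, with 1.12 and 0.65.

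The second question was whether diet or ncls moved these genes. Over all 4 organs, with organ as a term in the limma fit, no member was called for HFD-veh versus NCD-veh or for HFD-ncls versus HFD-veh. The lowest adjusted p of a member was 0.674 (Ppargc1a, log2 difference -0.33, SE 0.15) for diet and 1 for ncls. Over all genes the share called was 0% in both, with 1023 and 348 genes at an unadjusted p under 0.05, and no member among them. Ucp1 differed by -0.50 (SE 0.27) for diet and by 0.15 (SE 0.27) for ncls, which is an average over organs where it is high and organs where it is nearly absent. Both comparisons share the HFD-veh libraries.

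Within BAT there is 1 library per group and hence no test, so ratios describe these libraries. A member entered when it had at least 1 FPKM in at least 1 of the 2 libraries. For HFD-veh versus NCD-veh, 8 members entered and 1 exceeded 2-fold. Elovl3 was lower, at -1.32 on the log2(FPKM + 0.1) scale, with a plain ratio of FPKM of 2.52, while 2.01% of all genes were over 2-fold lower and 2.28% over 2-fold higher. Cidea, Ppargc1a and Ebf2 were lower by less, at -0.43, -0.40 and -0.43, Prdm16 was at 0.65, and Ucp1 and Ppargc1b were at 0.00 and 0.01. The median of the 8 was -0.20, beside -0.04 over all genes. Fast-twitch muscle markers were lower in the same library, 1001 against 2499 FPKM in sum, and subtracting the share of muscle RNA left Elovl3 at -1.32 and Ppargc1a at -0.39. The subtraction could hardly move them, because the share was at most 1.96%. Muscle held 0.307 and 0.293 FPKM of Elovl3 and 3.51 and 3.80 FPKM of Ppargc1a in NCD-veh and HFD-veh.

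For HFD-ncls versus HFD-veh in BAT, all 10 entered and 2 exceeded 2-fold, in opposite directions. Lhx8 and Zic1 reached 1 FPKM in HFD-ncls alone and Dio2 in HFD-veh alone. These 3 thus entered through the library where they are high. Dio2 was lower, at -1.56, with a plain ratio of FPKM of 3.36, from about 232 to about 68.6 fragments, while 1.7% of all genes were over 2-fold lower. Lhx8 was higher by 1.27, with a plain ratio of 2.65, while 0.261% of all genes were over 2-fold higher. Zic1, the other marker of classical brown fat, stood at 0.67. The remaining 7 lay between -0.18 for Elovl3 and 0.29 for Ebf2, with Ucp1 at -0.05, and the median of the 10 was 0.06, beside -0.02 over all genes. Lhx8, Zic1 and Dio2 are all low, and with 1 FPKM in place of 0.1 added before the log no member exceeded 2-fold. The fast-twitch muscle marker sum was lower again, 182 against 1001 FPKM, and the subtraction left Dio2 at -1.56 and Lhx8 at 1.27. It could hardly move them. Muscle held 0.0312 FPKM of Dio2 in HFD-veh and 0.0698 FPKM in HFD-ncls, and Lhx8 was listed at 0 in both. The HFD-ncls level lay between those of NCD-veh and HFD-veh for 4 members, Cidea, Ppargc1a, Prdm16 and Ebf2, and outside that range for 6.

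**Figure D3:**
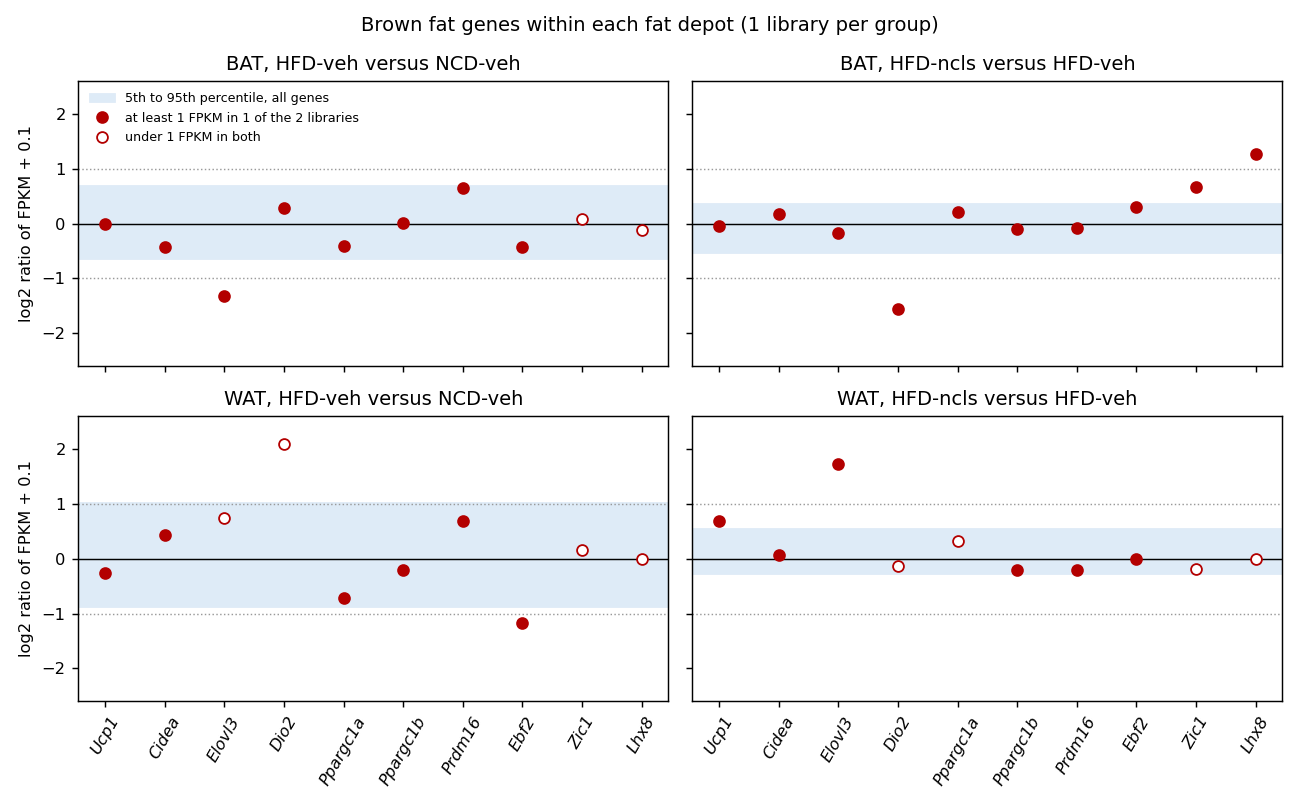
Log2 ratio of FPKM + 0.1 for each gene in BAT (top) and WAT (bottom), for HFD-veh versus NCD-veh (left) and HFD-ncls versus HFD-veh (right), 1 library per group; the band spans the 5th to 95th percentile of all genes, dotted lines mark 2-fold and open points are genes under 1 FPKM in both libraries. Ucp1 in BAT lies at 0.00 and -0.05, and the genes beyond 2-fold in BAT are Elovl3 on the left and Dio2 and Lhx8 on the right.

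In WAT, 6 members entered each comparison. With HFD-veh versus NCD-veh, Ebf2 was lower, at -1.17, with a plain ratio of 2.28, and it was the only member over 2-fold, while 3.87% of all genes were over 2-fold lower and 5.24% over 2-fold higher. In the same library mesothelial markers were lower, 81.4 against 205 FPKM, and of the 8 general adipocyte markers Cfd was over 2-fold lower, at 653 against 8163 FPKM, with a median of -0.25 over the 8 and Cidec highest at 0.35. Relative to the median of these markers Ebf2 did not exceed 2-fold. The part of these markers in the difference was not tested. Dio2 was 0.0936 and 0.731 FPKM, under 1 FPKM in both, so it did not enter. Ppargc1a was at -0.72, Prdm16 at 0.69, Cidea at 0.44 and Ucp1 at -0.26, with a median of -0.23 beside 0.03 over all genes. Of these, Ppargc1a reached 1 FPKM in NCD-veh alone and Prdm16 in HFD-veh alone, so each entered through the library where it is high.

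With HFD-ncls versus HFD-veh in WAT, Elovl3 was higher by 1.73, from about 9 to about 35.4 fragments, while 1.49% of all genes were over 2-fold higher and 0.214% over 2-fold lower. Elovl3 reached 1 FPKM in the HFD-ncls library alone, so it entered through the library where it is high. Liver markers were higher in the same library, 124 against 33.8 FPKM in sum, and Elovl3 is high in liver. Subtracting the share of liver RNA left 0.848 FPKM in HFD-ncls and 0.214 FPKM in HFD-veh, a log2 ratio of 1.59, with both under 1 FPKM. Prdm16, at -0.21, also entered through 1 library, HFD-veh, where it is the higher. Ucp1 was at 0.70, from 2.38 to 3.92 FPKM, Cidea at 0.06 and Ebf2 at 0.00, with a median of 0.03 beside 0.04 over all genes. Ucp1 in WAT thus stayed under 4 FPKM in all groups, and Zic1 and Lhx8 stayed at or near 0.

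In liver, 3 members entered, and Elovl3 was the gene that differed most. It was lower, at -1.90 in HFD-veh than in NCD-veh, with a plain ratio of 3.74, and no other passed 2-fold, where 5.12% of all genes did in either direction. In HFD-ncls it stood 0.95 above HFD-veh on the log2 scale, under 2-fold, and below NCD-veh, where 2.31% of all genes passed. In muscle Ppargc1a and Ppargc1b entered and neither exceeded 2-fold in either comparison, where 4.11% and 3.8% of all genes did. Ppargc1a there was at 0.11 and then -0.34.

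Other genes of brown fat were read from lists for the same pathway. Of 19 other brown fat genes, 18 were higher in BAT than in WAT and none lower, and all 19 were higher after the rescaling, beside 6.91% and 14.1% of all genes. Compared with liver 14 were higher, beside 24.3% of all genes, and Slc27a2, Eva1a and Gyk were lower. Compared with muscle 17 were higher, beside 28.6%, and none lower. Cox8b and Cox7a1, mitochondrial subunits of the electron chain, were 4380 to 5863 FPKM and 1546 to 2239 FPKM in BAT, above Ucp1. Fabp3, a fatty acid binding protein also made in muscle, was 295 FPKM in NCD-veh and 976 and 1002 FPKM in the HFD-veh and HFD-ncls libraries of BAT. S100b was likewise lowest in NCD-veh, with 33.7, 116 and 90.3 FPKM, and it had the highest ratio of the list for diet, 1.78 on the log2 scale, with Mpzl2 lowest at -0.75. Both S100b and Fabp3 were over 2-fold higher for diet, the only 2 of the 19, beside 2.28% of all genes. None of the 19 was over 2-fold for ncls, where Mpzl2 at 0.21 was highest and Acot11 at -0.78 lowest. The median of the list was 0.39 for diet and 0.01 for ncls.

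Neither relative of Ucp1 had its highest level in BAT. Ucp3 was called higher in BAT than in WAT and Ucp2 lower, beside 6.91% and 47.8% of all genes. In the limma fit Ucp3 differed from WAT by 2.41 after the rescaling (adjusted p = 0.000825). It differed from liver by 8.20 (adjusted p = 2.78e-08). Ucp3, an uncoupling protein relative of muscle, was 14.5, 45.5 and 58.8 FPKM in BAT, 8.68 to 13.4 FPKM in WAT and 52.7 to 115 FPKM in muscle. In BAT it was 1.64 higher on the log2 scale in HFD-veh than in NCD-veh. In that HFD-veh library fast-twitch muscle markers were lower, but slow-twitch markers summed to 29.6 against 24.0 FPKM. The part of muscle RNA in the level of Ucp3 was not tested. Ucp2, known from immune cells among others, was 52.9, 115 and 132 FPKM in WAT and 11.8 to 14.2 FPKM in BAT, and differed by -2.87 between BAT and WAT (adjusted p = 2.86e-06), or -2.11 after the rescaling. Macrophage markers in WAT had the same order of groups, 665, 944 and 1185 FPKM in sum, and their part in the level of Ucp2 was not tested.

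Of 17 genes of the adrenergic and thyroid input, 3 were higher and 5 lower in BAT than in WAT, beside 6.91% and 47.8% of all genes. After the rescaling 6 were higher and none lower, beside 14.1% and 25.7% of all genes, so the list has no settled direction between the depots. Adrb3, the β3-adrenergic receptor of adipocytes, was 212, 67.0 and 70.4 FPKM in WAT and 13.4, 51.9 and 24.5 FPKM in BAT. Adrb3 differed between BAT and WAT by -1.95 (adjusted p = 0.00332) before the rescaling. After it the difference was -1.19 (adjusted p = 0.0559), and Adrb3 was not called. Within BAT it was the only gene of the list over 2-fold in either comparison, at 1.95 for diet and -1.08 for ncls. Both ratios share the HFD-veh library, where Adrb3 was highest in BAT. Beside Adrb3, 2.28% of all genes were over 2-fold higher for diet and 1.7% over 2-fold lower for ncls. Pde3b was highest for ncls at 0.29. In WAT Adrb3 was the only gene of the list over 2-fold for diet, at -1.66, beside 3.87% of all genes over 2-fold lower. That sign is opposite to BAT, and the difference between the depots was not tested. No gene of the list exceeded 2-fold in WAT for ncls.

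Of 31 transcriptional regulators, 30 were tested, and 3 were higher and 12 lower in BAT than in WAT, or 6 and 10 after the rescaling. These counts are near the shares of all genes just given. Ppara, a receptor that turns on fatty acid oxidation, was 35.2 to 45.1 FPKM in BAT and 1.72 to 2.41 FPKM in WAT, a difference of 4.27 (adjusted p = 1.03e-08). Pparg, the master regulator of adipocytes, did not differ beyond the spread (-0.30, adjusted p = 0.391, or 0.46 and 0.194 after the rescaling). For diet in BAT, Zfp423 at 1.01 and Irf4 at -1.16 were the 2 of 26 over 2-fold, beside 2.28% of all genes higher and 2.01% lower. Zfp423 was 0.708 FPKM in NCD-veh and 1.53 FPKM in HFD-veh, so it entered through the library where it is high. For ncls none was over 2-fold, with Pparg at 0.41 highest and Cebpb at -0.39 lowest.

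Of 10 beige adipocyte genes, 5 entered in WAT. Of these, Pm20d1 at 1.01 and Slc36a2 at 1.00 were just over 2-fold higher for diet, beside 5.24% of all genes, and none was over 2-fold for ncls. Slc36a2 was 44.2, 88.5 and 93.4 FPKM in WAT and 182 to 198 FPKM in BAT. Tmem26 and Tnfrsf9, markers of beige cells, stayed under 0.3 FPKM in every library. In BAT, 3 entered, and Ear2 was over 2-fold in both comparisons, at 1.59 for diet and -1.06 for ncls, from levels under 2 FPKM. It was 0.409, 1.43 and 0.634 FPKM there. Ear2 thus entered both comparisons through the HFD-veh library, which they share and where it is high. Of all genes, 2.28% were over 2-fold higher for diet and 1.7% over 2-fold lower for ncls. Ear2 was matched by symbol alone, and the symbol may stand here for a ribonuclease gene of eosinophils rather than for a beige adipocyte gene.

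Of the 8 genes of heat production without UCP1, 7 entered for diet in BAT and 5 for ncls. Sln, the sarcolipin of muscle, was 9.42, 0.811 and 0 FPKM in BAT and was lowest for diet, at -3.39. Ckmt2, a mitochondrial creatine kinase that is abundant in muscle, was 9.76, 5.85 and 0.458 FPKM and was lowest for ncls, at -3.42. Both had the order of the fast-twitch muscle markers in BAT, whereas the slow-twitch markers summed to 24.0, 29.6 and 3.09 FPKM there. In quadriceps Sln was 0.788 to 1.63 FPKM, below its NCD-veh level in BAT, and Ckmt2 was 343 to 546 FPKM. The part of muscle RNA in either gene was not tested. Ckb, the cytosolic creatine kinase, went the other way, at 0.68 and 0.36. Of 10 secreted factors of brown fat, 2 of the 6 that entered were over 2-fold higher for diet, beside 2.28% of all genes. Ptgds was one, at 2.93 (3.96, 30.9 and 16.9 FPKM), and none was over 2-fold for ncls. The other was Gdf15, with 0.239 FPKM in NCD-veh and 1.75 FPKM in HFD-veh. Gdf15 thus entered through the library where it is high.

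**Figure D4:**
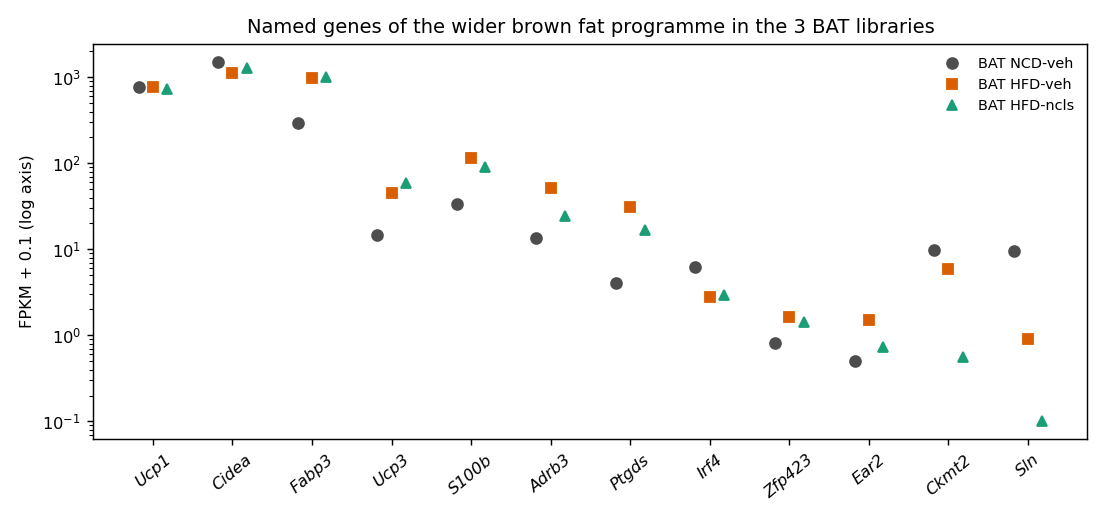
FPKM + 0.1 (log axis) in the 3 BAT libraries of Ucp1, Cidea and 10 genes of the wider lists, with circles for NCD-veh, squares for HFD-veh and triangles for HFD-ncls. Ucp1 lies between 740 and 770 FPKM in all 3, while Fabp3, Ucp3 and S100b are lowest in NCD-veh and Ckmt2 and Sln are lowest in HFD-ncls.

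The genes most like Ucp1 over the 12 libraries were Ntrk3, Gm9899, Svopl, Cidea, Rgs2, 5930403L14Rik, Nudt13, S100b, Cox7a2l and Adrbk2, with Pearson r of log2(FPKM + 0.1) from 0.992 to 0.977. Ntrk3 averaged 65.1 FPKM in BAT and at most 1.38 FPKM elsewhere. Since the 12 points are 3 libraries of each of 4 organs, any gene high in BAT and low elsewhere scores near 1, and by Spearman's rho only 2 of these 10 stayed among the first 10 and Cidea moved from place 4 to place 23. The genes closest to Ppargc1b were Cox4i1, Ndufa1 and Uqcr11, all of the respiratory chain, with r from 0.992 to 0.990. Closest to Ebf2 were Dgkd, Zfp703 and Adig (0.993 to 0.990), to Prdm16 Rasl12, Heyl and Radil (0.993 to 0.989), and to Cidea Ucp1, Kctd1 and 5930403L14Rik (0.988 to 0.986). Zic1 was closest to Clec18a, Asic3 and Atp5b, Lhx8 to Rnf182, Lgr6 and A530050N04Rik, and Dio2 to Gpd1, Otop1 and Hpdl. Elovl3 was closest to Mvb12a, Pbld1 and Mmd2, and Ppargc1a to Btbd6, Macrod1 and 1190007I07Rik.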

How the data were processed

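The authors extracted total RNA from dissected tissue, sequenced Illumina libraries, aligned reads to mm9 with TopHat and ran Cufflinks on RefSeq genes. The deposited values are FPKM, 1 per gene symbol and library. No scaling between libraries is stated. Of 22276 symbols, 86 had no value in some library and were left out of the fits.

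Groups came from the labels, 1 library each. Organs were compared with limma 3.58.1 (R 4.3.3, trended variance, Benjamini-Hochberg adjustment) on log2(FPKM + 0.1) over 13648 genes that reached 1 FPKM somewhere, and conditions with organ as a term. The fit was tested on simulated data. Within organs log2 ratios were taken without a test, on the log2(FPKM + 0.1) scale, which understates changes of low genes. Pairs of WAT, liver and muscle were added to the planned organ pairs. Positions came from the mm9 annotation and promoters from RefSeq. Depth was estimated with transcript lengths of single-transcript genes and is approximate. Plain ratios of FPKM or of mean FPKM were given without an added constant. Computations used Python 3.11.15, pandas 2.3.3 and matplotlib 3.10.9.

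Members and gene lists were chosen with earlier results of these data known. Named genes were all 10 members, the 10 genes most like Ucp1 and the 3 most like each other member by Pearson r. Of each list, the highest and lowest ratio in BAT in both comparisons were also named. Cox8b, Cox7a1, Fabp3, Ppara, Gdf15, Tmem26, Tnfrsf9, the genes named as lower than liver and the named genes of WAT were added after their values were seen. Alternatives were other pseudocounts (0.01 and 1), no filter or a filter of 5 FPKM, rescaling by the median ratio or by adipocyte markers, a 1.4-fold threshold, other models, each library left out, and, chosen after seeing the data, subtraction of muscle or liver RNA.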

Additional observations from a re-analysis of the deposited data

Results flagged for a closer look

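No member exceeded 2-fold in opposite directions in 2 organs, but 4 genes of the wider lists did. With 1 library per group, none of these differences between organs was tested. Adrb3 stood 3.60 higher on the log2 scale in BAT than in WAT in its ratio of HFD-veh to NCD-veh. Ucp3 stood 2.77 higher in BAT than in muscle in the same ratio, from 14.5 to 45.5 FPKM in BAT and from 115 to 52.7 FPKM in muscle. Ear2, matched by symbol alone, stood 2.78 higher in BAT than in liver in that ratio, at levels under 2 FPKM. For that ratio it reached 1 FPKM only in the HFD-veh library of BAT and the NCD-veh library of liver. Ear2 thus entered in each organ through the library where it is high. Slc27a2, an acyl-CoA synthetase abundant in liver, stood 6.30 higher in WAT than in muscle in its ratio of HFD-ncls to HFD-veh, going from 0.365 to 1.46 FPKM in WAT and from 3.44 to 0.0509 FPKM in muscle. Those are the libraries with liver markers at 0.0672%, 0.232%, 0.592% and 0.000332% of their liver level, in the same order, and the part of liver RNA in the difference was not tested.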

How the results depend on the processing

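Counts of members stayed within 1.5 times of the reported value, and medians within 1.5-fold with their sign, in 140 of 160 recomputed values. Leaving out each library in turn, 6 to 8 members were higher in BAT than in WAT, 7 to 9 than in liver and 7 to 9 than in muscle, and 0 were called for diet or ncls. Zic1 and Lhx8 no longer entered without the HFD-ncls library of BAT. A filter of 5 FPKM left 5 members in the fits, of which 4, 4 and 5 were higher in BAT than in WAT, liver and muscle. Within organs it left 0 members over 2-fold for ncls in WAT and 0 in BAT, and turned the median in BAT for ncls to -0.0546. Adding 1 FPKM before the log left 5, 6 and 6 members higher in BAT than in WAT, liver and muscle, and 0 over 2-fold for ncls in WAT and 0 in BAT. Without a filter, 2 members exceeded 2-fold for diet in WAT, 2 in liver and 2 in muscle, and 1 for ncls in muscle. At 1.4-fold there were 3 and 2 in WAT (diet, ncls), 2 in BAT for diet and 1 in liver for ncls. Rescaling by general adipocyte markers left 0 over 2-fold for diet in WAT and turned the BAT medians to 0.048 for diet and -0.0358 for ncls. Subtracting liver RNA left 0 over 2-fold for ncls in WAT. The causes of these moves were not tested beyond the fewer genes that a filter leaves. Of 753 values of single members, 6 gained an adjusted p below 0.05, 5 of them Dio2 against WAT, 3 moved and none reversed. The 3 were Elovl3 in WAT and Dio2 in BAT for ncls, at 0.71 and -0.82 with 1 FPKM added, and the genes most like Ucp1, of which Spearman's rho kept 2 of 10.

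No paired analysis was possible because each group holds 1 library and no replicate numbers are shared, but conditions were compared with organ as a term, and organs compared with condition as a term gave the same counts of 7, 9 and 9 members higher in BAT than in WAT, liver and muscle. With 1 library per group, no within-organ difference has a replicate check, and low genes (Dio2, Zic1, Lhx8) rest on few fragments. The number of animals per library is not known.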
